A study of Homo sapiens and Mus musculus with 4 samples.

Results

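ATF4 binding sites deep inside genes were taken from a list of peaks called in KG1a, a cell line derived from a human acute myeloid leukaemia. A peak was counted as deep when its centre lay inside a protein-coding gene and more than 10 kb from either end of every protein-coding gene. Of the 873 peaks in the list, 860 lay on chromosomes 1 to 22, and 296 of these met the rule. They made up 34.4% of the autosomal peaks (Wilson 95% interval 31.3 to 37.7%). The remaining autosomal peaks comprised 235 within 10 kb of a gene end and 329 outside genes and farther than 10 kb from any end.

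The KG1a list was made by chromatin immunoprecipitation and sequencing (ChIP-seq) with an anti-ATF4 antibody, set against an input library of the same cell line that received no antibody. Both libraries came from KG1a cells grown with 20% fetal bovine serum, and the labels name no genotype change and no treatment of the cells. The series also holds a mouse bone marrow list, which was not compared here. With 1 ChIP library and 1 input library there is no replicate check, and KG1a is a single cell line. The lists carry no height, score or read number, so depth is unknown. All intervals below cover counting error only, and no test was made between groups of peaks. All positions are GRCh38.

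ATF4 is a basic leucine zipper transcription factor whose translation rises when general translation is slowed through phosphorylation of eIF2, for example during amino acid shortage. It binds DNA as a dimer, often with a C/EBP protein, and is best known for acting on promoters of genes for amino acid supply, tRNA charging and stress. A binding site deep in a gene can lie at an internal promoter or at a distal regulatory element. It can also be a place where chromatin was recovered without direct ATF4 contact. A peak position alone does not tell these apart, nor which gene, if any, is regulated.

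Internal transcription starts were looked for first, because a gene's outermost end need not be the start that a cell uses. RefSeq start positions (GRCh38.p14) were listed for 232 of the 282 host genes. Of the 275 deep peaks on autosomes with listed starts, 3 had their centre within 1 kb of a listed start of any gene, which is 1.09% (Wilson 95% interval 0.372 to 3.16%). Of the sequence that meets the rule, 0.929% lies that close to a listed start. Within 5 kb there were 14 peaks, 5.09% (interval 3.06 to 8.36%), against 4.34% of the sequence. Both sequence shares lie within the intervals of the peak shares. Some of the 275 peaks, such as those in LRP1B, lay in hosts with no listed start of their own. Unlisted starts enter neither the peak shares nor the sequence shares.

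A single deep peak overlapped a listed promoter. It lay in CCDC77, a coiled-coil protein gene, at chr12:401305-401629. The centre was 12.1 kb inside the low-coordinate end of the gene, which spans 53.3 kb. CCDC77 has an internal start on the plus strand at position 401644. The divergent long non-coding RNA gene LOC105369594 starts on the minus strand at position 401410, which is 57 bp from the peak centre. The sequence from 250 bases before to 50 after the internal CCDC77 start (chr12:401394-401693, plus strand, RefSeq GRCh38.p14) is shown because no other deep peak overlaps a listed promoter. Capitals mark the 236 bases inside the peak.
CCDC77 internal start: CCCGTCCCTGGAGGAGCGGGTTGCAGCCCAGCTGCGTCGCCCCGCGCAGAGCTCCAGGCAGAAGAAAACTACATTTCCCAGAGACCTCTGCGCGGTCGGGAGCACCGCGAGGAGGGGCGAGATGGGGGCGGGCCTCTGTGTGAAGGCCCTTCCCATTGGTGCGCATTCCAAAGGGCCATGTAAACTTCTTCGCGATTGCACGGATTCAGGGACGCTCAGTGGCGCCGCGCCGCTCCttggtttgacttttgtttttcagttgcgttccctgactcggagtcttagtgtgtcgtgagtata

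This stretch was 60.7% G and C with 25 CpG dinucleotides. The median of all 35116 listed promoters was 58.7% with 14. It was searched on both strands for 10 motif spellings, and none was found. They included the C/EBP-ATF response element TGATGNAA, held by 3.62% of all listed promoters of 300 bases, and the cAMP response element TGACGTCA, held by 1.85%. They also included TGACGCAA (0.513%), the AP-1 site TGANTCA (7.71%) and the E-box CACGTG (7.26%). The first of these spellings includes TGATGCAA, and the E-box is part of TCACGTGA, which was also searched. The promoter of LOC105369594 held none of them either. Absence of these letters from the window says nothing about whether ATF4 was bound. The other peaks within 1 kb of a listed start lay in EHMT1, a histone H3K9 methyltransferase gene, 618 bp from the start of LOC651337, and in GSE1, 880 bp from an internal start of GSE1 itself.

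ATF3 was the only gene of a list of 47 ATF4 target genes to hold a deep peak. It encodes a stress-induced factor of the ATF/CREB family and is known to be transcribed from alternative promoters. The peak, chr1:212608462-212608889, was 428 bp wide and stood in place 22 of the 873 in the deposited order. Its centre lay 43.3 kb from the low-coordinate end, where the gene starts on the plus strand, and 12.1 kb from the other end. The nearest listed start, also of ATF3, was 6343 bp away. A start absent from the RefSeq list would be missed, and whether the peak lies at one was not tested. Of the 47 target genes 27 have sequence that meets the rule, with a median length of 39.5 kb, and they offer 0.680 Mb in which a deep peak could fall. The share of hosts, 1 of 27 or 3.70%, is near the 2.71% of all genes with such sequence. The list's density was 1.47 peaks per Mb (exact Poisson 95% interval 0.0373 to 8.20), beside 0.322 over all genes.

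The 296 peaks lay in 282 host genes, 4 of the peaks being shared by a pair of overlapping genes. These pairs were ADCY10 with DCAF6, NT5DC1 with COL10A1, CMSS1 with FILIP1L, and SGK3 with its readthrough gene C8orf44-SGK3. Of the 10401 autosomal protein-coding genes with any sequence that meets the rule, 2.71% were hosts. Hosts were long. Their median length was 167 kb (95% interval of the median 140 to 194 kb), with quartiles at 84.6 and 369 kb. The 10401 genes had a median of 59.4 kb. Long genes have more room for a peak, so length was read against sequence. The gene length that splits the deep sequence into equal shares was 244 kb, while the median host counted once per peak was 173 kb (interval 146 to 203 kb).

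Peak density was lower in longer genes. Genes up to 50 kb held 27 peaks in 53.6 Mb of deep sequence, 0.504 peaks per Mb (exact Poisson 95% interval 0.332 to 0.733). Genes of 50 to 100 kb had 0.490 per Mb (0.379 to 0.624), and genes of 100 to 200 kb had 0.348 (0.273 to 0.436). In genes of 200 to 500 kb the density was 0.258 per Mb (0.203 to 0.324). It was 0.253 (0.180 to 0.346) in genes of 500 to 1000 kb and 0.225 (0.138 to 0.348) above 1000 kb. The last 3 values do not differ beyond their intervals, and neither do the first 2. Pooled, genes up to 100 kb had 0.494 per Mb (0.399 to 0.605) and genes over 200 kb had 0.251 (0.210 to 0.298), a ratio of 1.97 between intervals that do not overlap.

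**Figure D1:**
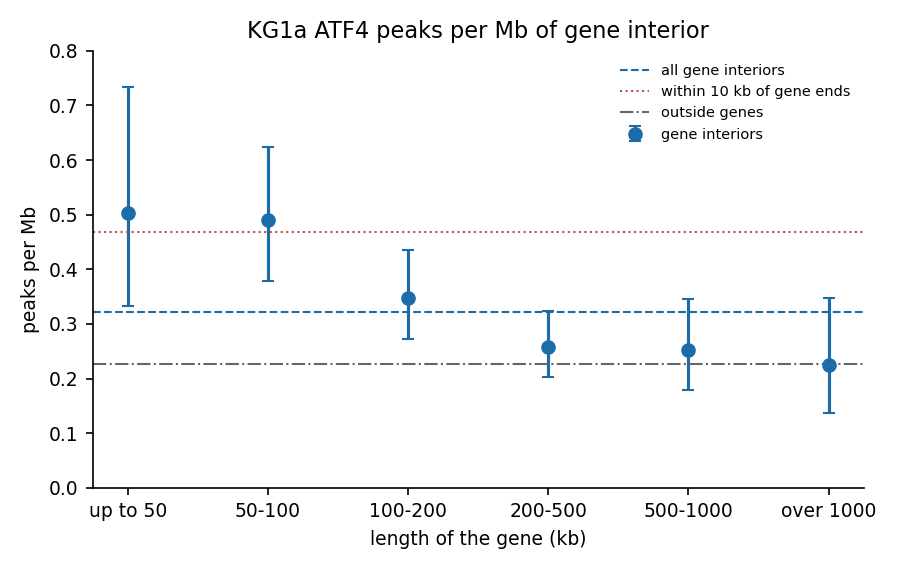
ATF4 peaks per Mb of deep gene sequence (vertical axis) for 6 classes of gene length in kb (horizontal axis); points are densities, bars are exact Poisson 95% intervals, and horizontal lines give the density of all gene interiors, of sequence within 10 kb of gene ends and of sequence outside genes. Density was 0.504 and 0.490 per Mb in the 2 shortest classes and 0.225 to 0.258 in the 3 longest.

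Deep sequence of short genes is also closer to gene ends, so density was compared at the same distance. Between 20 and 50 kb from the nearest gene end, genes up to 100 kb had 43 peaks in 82.8 Mb, 0.520 per Mb (exact Poisson 95% interval 0.376 to 0.700). At that distance genes over 200 kb had 16 peaks in 85.3 Mb, 0.188 per Mb (0.107 to 0.305), and the intervals did not overlap. Between 10 and 20 kb the values were 0.482 (0.358 to 0.635) and 0.294 (0.135 to 0.558), with overlapping intervals. Within genes over 200 kb no trend with distance was seen. Density there was 0.309 per Mb at 50 to 100 kb, 0.256 at 100 to 200 kb and 0.214 beyond 200 kb, with overlapping intervals. The cause of the difference was not tested.

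Taken over all genes, deep sequence was intermediate in density. It had 0.322 peaks per Mb (exact Poisson 95% interval 0.287 to 0.361) over 918.4 Mb. Sequence within 10 kb of gene ends had 0.468 (0.410 to 0.532), and sequence outside genes 0.227 (0.203 to 0.253). The interval of genes over 200 kb overlapped that of sequence outside genes, and the interval of genes up to 100 kb overlapped that of sequence near gene ends. Assembly gaps were counted as sequence, which lowers the density of a class that holds them. How they divide between the classes was not measured.

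Deep peaks lay a median of 40.5 kb from the nearest gene end, with quartiles at 21.0 and 86.1 kb, and 66 of them (22.3%) lay over 100 kb away. That end can belong to the host or to another protein-coding gene. By this measure the deepest was in LRP1B, a very large gene of the LDL receptor family, 782 kb from the nearest end at chr2:141013271-141013581. MACROD2, which encodes an ADP-ribose hydrolase, held one 700 kb from the nearest end at chr20:15037393-15037769. That end is of another gene, as the peak lay 1042.1 and 1015.6 kb from the ends of MACROD2 itself. ROBO2, an axon guidance receptor gene, held one 648 kb deep at chr3:76554002-76554386. The next 7 were in LRMDA (533 kb), SPAG16 (505 kb), CADM2 (461 kb), DLGAP1 (375 kb), GALNT13 (362 kb), LRRC4C (336 kb), and RGS6 (334 kb). In GALNT13 and RGS6 the nearest end was also of another gene. The nearer of the host's own ends was 615.6 kb away in GALNT13 and 362.7 kb in RGS6. The shortest of these 10 hosts, RGS6, measures 763 kb.

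**Figure D2:**
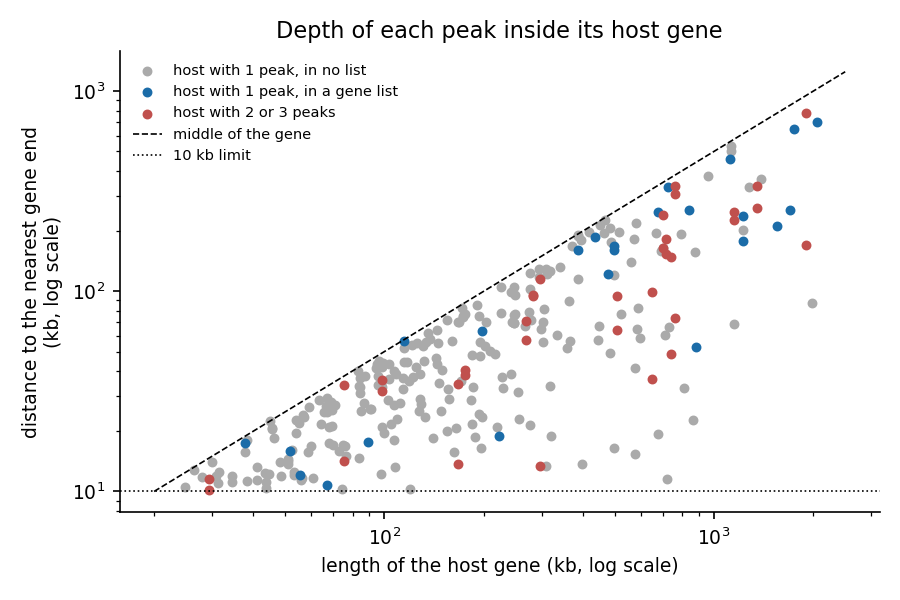
Distance of each deep peak to the nearest end of any protein-coding gene (vertical axis, kb, log scale) against the length of its host gene (horizontal axis, kb, log scale). Each point is a peak, coloured by whether its host holds several peaks or is in a gene list. The dashed line is the middle of a gene and the dotted line the 10 kb limit; host length ranges from 24.8 to 2058 kb.

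The longest hosts were MACROD2 (2058 kb), EYS (1987 kb), LRP1B (1900 kb) and ROBO2 (1743 kb). They were followed by NRXN3 (1698 kb), PDE4D (1553 kb), GALNT13 (1388 kb), LRRC4C (1346 kb), LINGO2 (1276 kb) and GPHN (1227 kb). NRXN3 encodes a synaptic adhesion protein and GPHN a scaffold of inhibitory receptors. The shortest hosts were ICOS (24.8 kb), a T cell co-stimulator, SPPL2B (26.4 kb), LPL (28.0 kb), the lipoprotein lipase gene, MAVS (29.3 kb) and METTL14 (30.0 kb), a subunit of the m6A RNA methyltransferase. A gene needs over 20 kb to hold a member at all.

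Along their hosts, the part after the outermost start held a smaller share of the peaks than of the deep sequence. For 239 peaks with 1 host and a listed strand, 52 lay in the first of 3 equal parts of the gene, 21.8% (Wilson 95% interval 17.0 to 27.4%). The deep sequence of the same hosts, averaged over peaks, placed 29.0% there. The middle part held 108 peaks, 45.2% (39.0 to 51.5%), against 42.4% of the sequence. The last part held 79, 33.1% (27.4 to 39.2%), against 28.6%. Only the first part's interval left out its sequence share, and the 3 intervals were not adjusted for their number.

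Long non-coding RNA genes covered 28 deep peak centres, 9.46% (Wilson 95% interval 6.63 to 13.3%), beside 6.85% of the deep sequence, which lies within the interval.

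Several deep peaks in a gene were uncommon. Of the 282 hosts, 265 held 1 peak, 16 held 2 and 1 held 3. The 17 genes with several are 0.163% of the 10401, and held 35 peaks. Their median length was 506.7 kb, against 155.6 kb for hosts of 1 peak. Spacing between neighbouring peaks of a gene ranged from 0.822 to 750.3 kb with a median of 110.6 kb, and was over 100 kb in 10 of 18 cases and under 10 kb in 4.

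RGS6, which encodes a regulator of G protein signalling, held the 3 peaks. They lay at chr14:72267199-72267530, chr14:72303038-72303378 and chr14:72535527-72535909, with 35.8 and 232.5 kb between centres. The gene is 763 kb long and 701.7 kb of it meets the rule, so this comes to 4.27 peaks per Mb of its deep sequence. RGS6 is singled out for holding the most peaks, so this density is a high one by choice.

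The 4 closest pairs were in CRACD, MAVS, RIN3 and GAP43. MAVS encodes the mitochondrial adaptor of antiviral RNA sensing. Its peaks, chr20:3864320-3864765 and chr20:3865713-3866112, were 446 and 400 bp wide and 1.37 kb apart. They stood in places 4 and 11 of the whole list, ahead of all other deep peaks. Only 9.29 kb of the 29.3 kb gene meets the rule, and the second peak, at 10.2 kb from the gene end, was the one nearest to the limit. In CRACD, an actin capping regulator gene, the peaks at chr4:56143980-56144491 and chr4:56144903-56145212 were 512 and 310 bp wide with centres 0.822 kb apart. In RIN3, a gene of endosomal Ras and Rab signalling, they lay 2.27 kb apart at chr14:92551705-92552018 and chr14:92553955-92554318. GAP43, the gene of a neuronal growth cone protein, had them 4.09 kb apart at chr3:115655287-115655609 and chr3:115659283-115659782. A single bound region split by the peak caller and separate sites cannot be told apart in such lists.

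STAT3, the transcription factor gene of interleukin signalling, held peaks at chr17:42327346-42327726 and chr17:42347215-42347549, 19.8 kb apart in a gene of 75.1 kb. They lay 60.9 and 41.1 kb from its start on the minus strand. STAT5B, on the same chromosome, held a further peak at chr17:42269663-42270013, 6553 bp from a listed start of STAT5B. Peaks in GSE1, a chromatin protein gene, lay 31.0 kb apart at chr16:85581328-85581646 and chr16:85612279-85612606, in places 170 and 171. Both stood in the last part of the gene, 81.3 and 87.4% of the way from the low-coordinate start.

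The other pairs were far apart or in long genes. SGCZ, a sarcoglycan gene, had its pair 20.5 kb apart in 1154 kb. Pairs lay 101.8 kb apart in DTNB, a dystrobrevin gene, 119.5 kb in STAC, 139.6 kb in FER1L6 and 297.4 kb in STPG2. They lay 377.7 kb apart in BCAS3, 514.6 kb in EXOC6B, an exocyst subunit gene, and 544 kb in RORA, a nuclear receptor gene. LRP1B and LRRC4C, a netrin-G ligand gene, had the widest spacing at 612.5 and 750.3 kb.

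**Figure D3:**
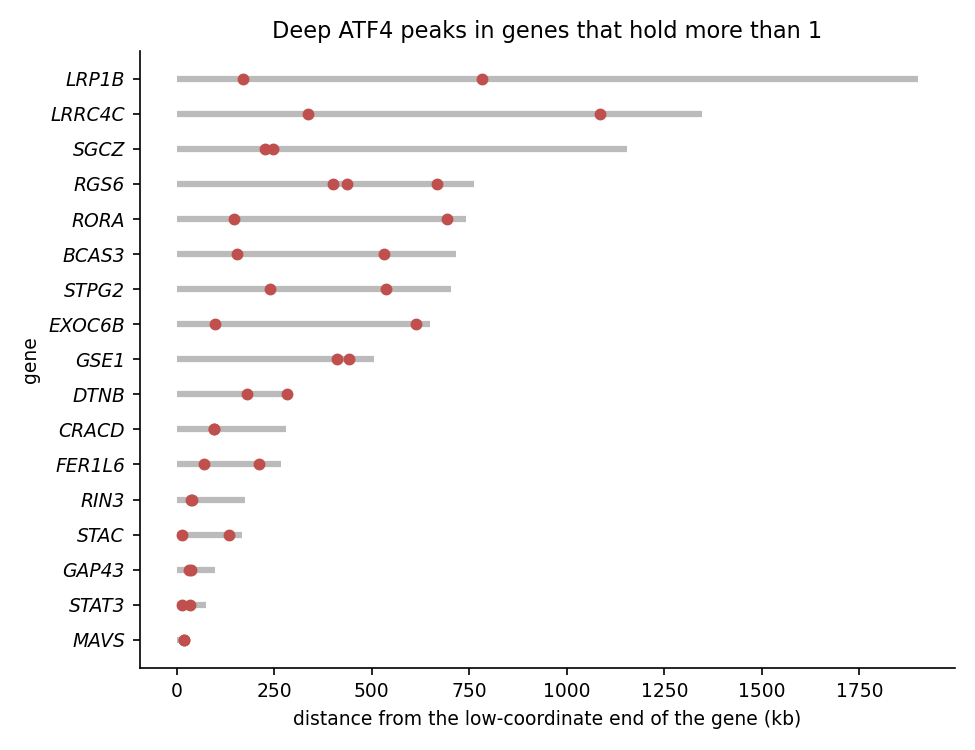
Position of deep ATF4 peaks (points) in the 17 genes that hold more than 1, measured in kb from the low-coordinate end of each gene (horizontal axis); grey bars show the whole gene, and genes are ordered by length. RGS6 holds 3 points, and the points of MAVS, CRACD, RIN3 and GAP43 nearly coincide at this scale.

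Members of 9 gene lists were looked up among the hosts. Of 296 listed genes with deep sequence 27 were hosts, 9.12% beside 2.71% of all such genes. The listed genes are long, with a median of 283 kb beside 59.4 kb. Their density was 0.232 peaks per Mb (exact Poisson 95% interval 0.157 to 0.332), beside 0.322 over all genes. The synapse and the channel list held 7 hosts each. Synapse adhesion genes had the most deep sequence of the lists (48.3 Mb), followed by fragile site genes (28.5 Mb) and channel and receptor genes (20.9 Mb).

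Of 33 blood transcription factor genes with deep sequence 2 were hosts, 6.06% beside 2.71% of all such genes. These genes have a median length of 187 kb, and their density was 0.310 peaks per Mb (0.0375 to 1.12) beside 0.322. RUNX2, a RUNX family factor gene, had a peak at chr6:45396757-45397082, 68.6 kb from its start. The nearest gene end, 19.0 kb away, was of another gene. MYB, a proto-oncogene of blood progenitors, had one at chr6:135201569-135201895, 20.4 kb from its start in a gene of 37.9 kb. Of 33 blood signalling genes, with a median length of 130 kb, 3 were hosts, 9.09%. They held 4 peaks, and the list's density was 0.740 per Mb (0.202 to 1.89), an interval that holds the 0.322 of all genes. The hosts were STAT3, STAT5B and NOTCH1, a receptor gene with its peak at chr9:136530022-136530352, 15.9 kb from the start. Of 34 chromatin regulator genes, with a median length of 134 kb, 1 was a host, 2.94%, which is near the share of all genes. The list's density was 0.184 per Mb (0.00466 to 1.02). The host was DNMT3A, a DNA methyltransferase gene often mutated in myeloid leukaemia, with a peak at chr2:25286251-25286601 near the middle of the gene.

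Nutrient-sensing and autophagy genes had 2 hosts of 30, 6.67% beside 2.71% of all genes, at 0.513 per Mb (0.0622 to 1.86). Their median length is 106 kb beside 59.4 kb. SESN3, which encodes a sestrin that restrains mTORC1, had a peak at chr11:95221550-95221860, 10.8 kb from its start on the minus strand. AMBRA1, an autophagy regulator gene, had one at chr11:46459484-46459811, 63.2 kb from the nearest end. Genes of cAMP signalling, with a median length of 289 kb, also had 2 of 30, 6.67%. These were ADCY2, an adenylyl cyclase gene, and PDE4D, a phosphodiesterase gene, at 0.197 per Mb (0.0238 to 0.712). Both intervals hold the 0.322 of all genes.

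Synapse adhesion genes had 7 hosts of 46, with 9 peaks in 48.3 Mb, or 0.186 per Mb (0.0852 to 0.354). The hosts as listed were LRP1B, described above as an LDL receptor family gene, and LRRC4C with 2 peaks each. CADM2, NRXN3, PTPRM, ROBO2 and UNC5C held 1 each. Ion channel and neurotransmitter receptor genes had 7 of 40 and 0.335 per Mb (0.135 to 0.691). These were the calcium channel genes CACNA1C and CACNA2D1, the glutamate receptor genes GRIK2, GRIK4 and GRM7, the calcium release channel gene ITPR2, and KCNIP4, which encodes a potassium channel partner. Genes of large common fragile sites had 2 hosts of 24, GPHN and MACROD2, which is 8.33% beside 2.71% of all genes. Their density was the lowest of the lists, 0.0703 per Mb (0.00851 to 0.254). That interval lies below the 0.322 of all genes, but the list's genes have a median length of 1154 kb. It also overlaps the interval of genes over 1000 kb (0.225 per Mb, 0.138 to 0.348). The density rests on 2 peaks and on how the list was filled. LRP1B, with 2 peaks, was counted with the synapse adhesion genes. The share of members that were hosts was 15.2% for synapse adhesion genes and 17.5% for channel and receptor genes, beside 2.71% of all genes, and their median lengths were 1076 and 462 kb beside 59.4 kb. Per Mb of deep sequence neither list stood above the 0.322 of all genes beyond its interval.

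Deep peaks were narrow, as were peaks at other positions. The smallest width was 310 bp in every class, and the median of each class lies close to it. Whether the peak calling set this smallest width was not tested. The median width of deep peaks was 337 bp (95% interval of the median 334 to 342 bp). Their quartiles were at 321 and 363 bp, with a range of 310 to 719 bp. Peaks outside genes had a median of 340 bp (336 to 345 bp), and peaks within 10 kb of gene ends 348 bp (342 to 356 bp). Of deep peaks 31 were wider than 400 bp, 10.5% (Wilson 95% interval 7.48 to 14.5%). The same was true of 10.3% (7.49 to 14.1%) outside genes and of 20.0% (15.4 to 25.6%) near gene ends, so the intervals of deep and intergenic peaks overlapped and the interval near gene ends lay above both. Wider than 500 bp were 12 deep peaks, 4.05% (2.33 to 6.95%), and 10.6% (7.31 to 15.2%) of those near gene ends.

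**Figure D4:**
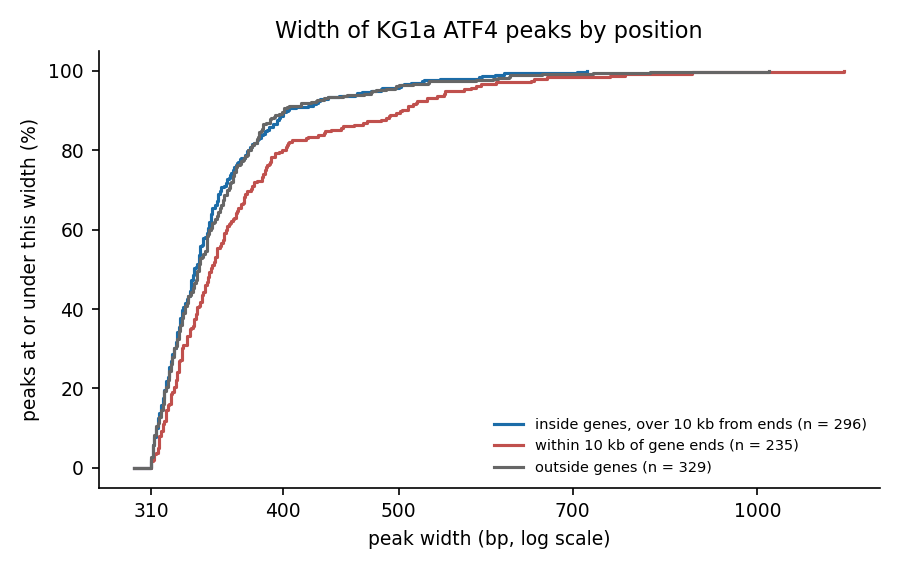
Cumulative share of peaks in percent (vertical axis) at or under a given width in bp (horizontal axis, log scale) for the 296 deep peaks, the 235 within 10 kb of gene ends and the 329 outside genes. The curves of deep and intergenic peaks overlie each other, with medians of 337 and 340 bp, and the curve near gene ends lies to their right.

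The widest deep peak, 719 bp, lay in IQSEC1, an exchange factor gene for ARF GTPases, at chr3:13011282-13012000. It was followed by a peak of 706 bp in AGBL2, a tubulin carboxypeptidase gene, at chr11:47670634-47671339. On chromosome 8 stood 4 of the 12 peaks wider than 500 bp. They lay in AGO2, the effector of microRNA silencing (613 bp), COL14A1, a collagen gene (603 bp), ASH2L, a subunit gene of H3K4 methyltransferase complexes (542 bp), and FER1L6 (525 bp). The others lay in FNBP1 (587 bp), STARD9 (584 bp), FBXL17 (523 bp), CRACD (512 bp), the ADCY10 and DCAF6 overlap (505 bp) and EPS15, an endocytosis gene (502 bp). GAP43 (500 bp), TBC1D9 (484 bp) and RNF157 (483 bp) complete the 15 widest. Of the 11 that lie on chromosomes with listed starts, 0 had a listed start within 1 kb, though TBC1D9 has no listed start of its own. The 4 on chromosome 8 were not assessed.

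In the deposited order, whose meaning the list does not state, the first deep peaks after MAVS and ATF3 were in TRAPPC9, CCDC187, ZNF536, GRIK4, SH3BP5, HK2 and PPM1E, in places 25, 32, 39, 43, 46, 47 and 52. HK2 encodes hexokinase 2, the first enzyme of glycolysis. Its peak at chr2:74866820-74867192 was 32.9 kb from the start on the plus strand. The share of deep peaks was even along the list, at 34.3, 36.1, 34.4 and 32.9% in 4 successive parts of near-equal size.

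Between chromosomes, the density of deep peaks ranged from 0.135 per Mb on chromosome 7 (8 peaks, exact Poisson 95% interval 0.0584 to 0.266) to 0.496 on chromosome 17 (14 peaks, 0.271 to 0.832). Chromosome 7 was the only autosome whose interval lay wholly below the 0.322 of all deep sequence, and no interval lay wholly above it. With 22 intervals drawn, this was not adjusted for their number. On chromosome 7 the density at all other positions was 0.261 (0.170 to 0.382). Chromosome 5 had 0.181 (0.0866 to 0.332) deep inside genes and 0.119 (0.0667 to 0.197) elsewhere.

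**Figure D5:**
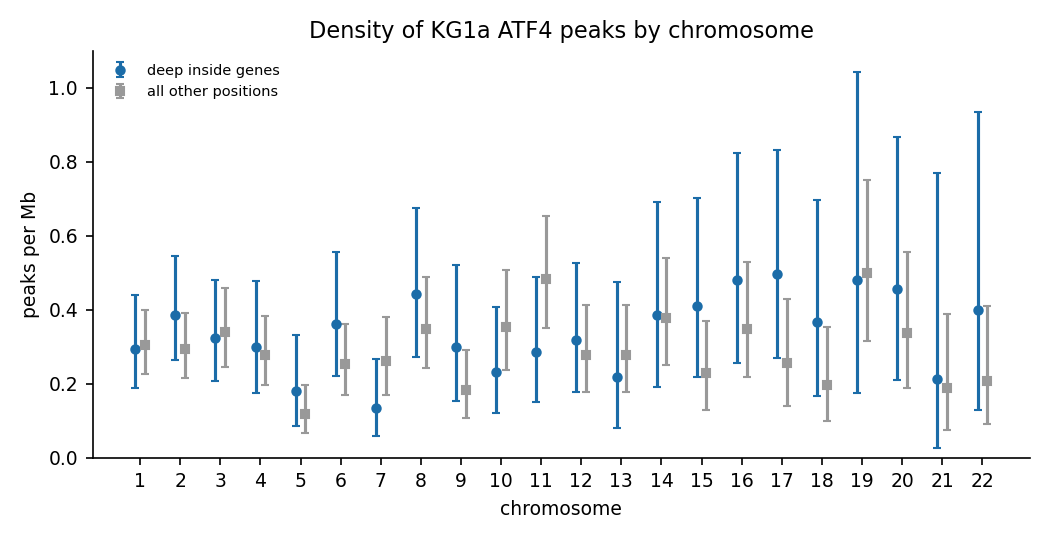
ATF4 peaks per Mb (vertical axis) on each autosome (horizontal axis) for sequence deep inside genes (circles) and for all other positions (squares), with exact Poisson 95% intervals. For the squares, all other peaks of the chromosome were divided by the other sequence between its first and last gene. Intervals are wide on small chromosomes; chromosome 7 is lowest for deep sequence at 0.135.

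Around the 10 kb limit the values ran on without a gap. Just inside lay peaks in MAVS (10.2 kb), DYNC2I1 (10.3 kb), UBE2D3 (10.3 kb), NSMCE1 (10.4 kb) and ICOS (10.5 kb). Peaks just outside included those in SLC2A5 (9.92 kb), ST3GAL6 (9.89 kb), the TG and SLA overlap (9.48 kb) and TNKS1BP1 (9.39 kb).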

How the data were processed

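Peak positions were used as deposited. The submitters' processing notes list CASAVA 1.4, Bowtie2, MACS2 and deepTools with the builds GRCh38 and GRCm38. Their settings and the peak threshold are not given in the sources used here. Each deposited list has 3 columns (chromosome, start, end) and no other measure. Starts were read as counted from 0 and are printed counted from 1. Python 3.11.15 with scipy 1.17.1 placed peak centres against 19126 autosomal protein-coding genes (RefSeq GRCh38.p14). Density is peaks divided by the bases that meet the same rule. Near gene ends and outside genes, only bases between the first and last gene of each chromosome were counted. Peaks beyond that span were not taken out. Bases shared by overlapping genes count once for each gene in the values by gene length and by list. Gene starts and strands came from a RefSeq table of 35116 promoters. The members and the gene lists were chosen with earlier results of these data known. Genes named are hosts of several peaks, of the 15 widest, 10 earliest and 10 deepest peaks, the 10 longest and 5 shortest hosts, list members and peaks at the limit, of which 1 is not reported here. EHMT1, GSE1 and CCDC77 are also named for their distance to starts. The planned motif search in whole peaks needs a genome and was not run. On 200 planted positions, class and host were recovered in 200.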

Additional observations from a re-analysis of the deposited data

How the results depend on the processing

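No paired analysis was possible because no result comes from a test. Of 37 values under alternatives 26 stayed close to the reported value, meaning within 1.5 times for counts and within the 95% interval for shares, medians and densities. The deep share was 38.8% with a limit of 5 kb and 26.5% with 20 kb, where hosts had a median length of 210.5 kb; both follow from moving the limit. Keeping only the widest 50% of the list uses fewer peaks and left 137 hosts and 3 genes with several peaks. Densities were then 0.2985, 0.2377, 0.1362, 0.1327, 0.1297 and 0.05629 peaks per Mb from the shortest to the longest class of genes. Genes up to 100 kb still had 2.14 times the density of genes over 200 kb. Unknown depth limits all counts.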

Other observations

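Some further hosts, picked after their values were seen, are given as values only. KDM5B, an H3K4 demethylase gene, had a deep peak at chr1:202793483-202793814, 14.8 kb from its start in a gene of 83.9 kb. PDK1, a kinase gene that restrains pyruvate entry into mitochondrial oxidation, had one at chr2:172653792-172654154, 70.3 kb from the nearest end. Deep peaks lay a median of 823 kb from the next peak of any class, and 8 of the 296 had another peak within 10 kb.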
